A study of Mus musculus with 18 samples.

Results

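The genes described here encode the enzymes and carriers that take glucose to carbon dioxide: 22 genes of glycolysis and of lactate handling, 10 genes of pyruvate entry into mitochondria and 13 genes of the tricarboxylic acid (TCA) cycle. They were chosen by name, and all 45 held at least 10 expected counts in 6 or more libraries, out of 55416 genes in the tables and 17131 genes that met the same count rule. A second identifier that carries the name Aldoa did not meet it and was left out. The tissue was the ovary of wildtype female Balb/c mice, 1 library per mouse and 6 mice in each of 3 groups. Young controls were 8 weeks old and received water. Aged controls were 40 weeks old and received water. The treated group was also 40 weeks old and received Samul-tang, a herbal decoction, at 2.5 g/kg. Dosing was by mouth, 5 times a week for 4 weeks, and mice of both aged groups were kept apart within a shared cage. Every mouse, the controls included, was then superovulated with 5 IU of pregnant mare serum gonadotropin followed after 48 hours by 5 IU of human chorionic gonadotropin, and ovaries were collected 16 hours later. All values therefore describe stimulated ovaries after ovulation, and the oocytes shed at ovulation are not part of an ovary at that time.

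Glycolysis splits glucose into pyruvate in the cytosol. Lactate dehydrogenase interconverts pyruvate and lactate, and monocarboxylate transporters move both across the cell membrane. Pyruvate that is to be oxidised crosses the inner mitochondrial membrane through a carrier of a pair of subunits, Mpc1 and Mpc2, and is turned into acetyl-CoA by the pyruvate dehydrogenase complex, which kinases (Pdk) switch off and phosphatases (Pdp) switch on. In the ovary this division of labour lies between cells: oocytes use glucose poorly and depend on pyruvate and lactate made by the surrounding granulosa and cumulus cells, while the corpus luteum is rich in mitochondria, where steroid synthesis begins.

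Libraries were made from the 3' ends of transcripts, so levels are given as CPM, counts scaled to a common library total, and a level is compared between mice and not between genes. Totals ran from 9.05 to 20.35, in units of 1000000 counts. The Samul-tang libraries were deeper than those of the aged controls (17.24 ± 2.05 against 12.49 ± 0.714 in the same unit, SD, n = 6 each; exact permutation test, two-sided, adjusted p = 0.0123 over 34 tests), and the most abundant gene took a smaller share of them (10.73 ± 3.13% against 15.45 ± 1.70%, adjusted p = 0.021). Ovarian markers were present, whereas the granulosa gene Amh, the oocyte gene Figla and the cumulus genes Has2 and Areg were too low to be tested. With age, the summed level of the oocyte markers was lower (155.5 ± 22.4 against 47.93 ± 10.9 CPM; exact permutation test, adjusted p = 0.0123; 9 of 9 tested members fell), as were those of theca, smooth muscle and fibroblast markers, while luteal markers were higher (13560 ± 1640 against 17740 ± 1060 CPM, adjusted p = 0.0123), as were endothelial, lymphoid and adipocyte markers. Among the 10 luteal genes 3 were called higher with age (5.25% of all genes were) and 0 lower. Of the 6 adipocyte genes only 2 were high enough to be tested one by one, and 1 of them was called higher with age. Of the 7 lymphoid genes 4 were tested, without Cd3e, Cd3g and Cd79a, and 3 were called higher. Between Samul-tang and aged controls the endothelial list alone passed among 15 marker lists (260.3 ± 40.9 against 293.9 ± 10.8 CPM, adjusted p = 0.0335). Its Samul-tang values ran from 178.4 to 289.4 CPM, and 0 of its 7 genes were called one by one. In the cumulus list 1 of 9 tested genes was called lower with Samul-tang, where 0.489% of all genes were. The part of these shifts in the results below was not tested, and in whole ovaries fewer cells of a type and less RNA per cell cannot be told apart.

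Young control 3 stood apart in glycolysis. It was the lowest of its 6 libraries for 16 of 22 glycolysis genes, with a median deviation of -0.36 on the log2 scale, and it had the lowest total of all libraries. Its median deviation was 0.06 over the pyruvate entry genes and -0.00 over the TCA cycle genes. Where leaving it out changed a call with age, both values are given beside the gene.

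Some members share reads with other genes. Expected counts were whole, within 0.005, in all 18 libraries for 8 members, among them Pdk4 and Suclg1, and not whole in 9 or more libraries for 15 members, which include Gapdh, Pkm, Ldha, Ldhb, Mdh1 and Mpc1. The extreme case was Eno1, the enolase of most tissues, whose near-identical copy Eno1b was assigned between 55.5% and 76.5% of the reads of the pair. The level of Eno1 alone is therefore uncertain, and the summed level of both was 164 ± 33.9 CPM in young controls, 161 ± 8.49 in aged controls and 175 ± 30.7 in the Samul-tang group (SD, n = 6 each). Pfkp shared reads with Pitrm1. Ldha shared reads with Rnf103, which held 25.7 ± 2.85 CPM in young controls, 27.1 ± 3.50 in aged controls and 22.6 ± 2.58 with Samul-tang. Summed with Ldha the level was 114 ± 17.1, 112 ± 10.3 and 131 ± 23.8 CPM in the same order. The partner of Mpc1 and that of Ldhb held few reads, as given with those genes.

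**Figure D1:**
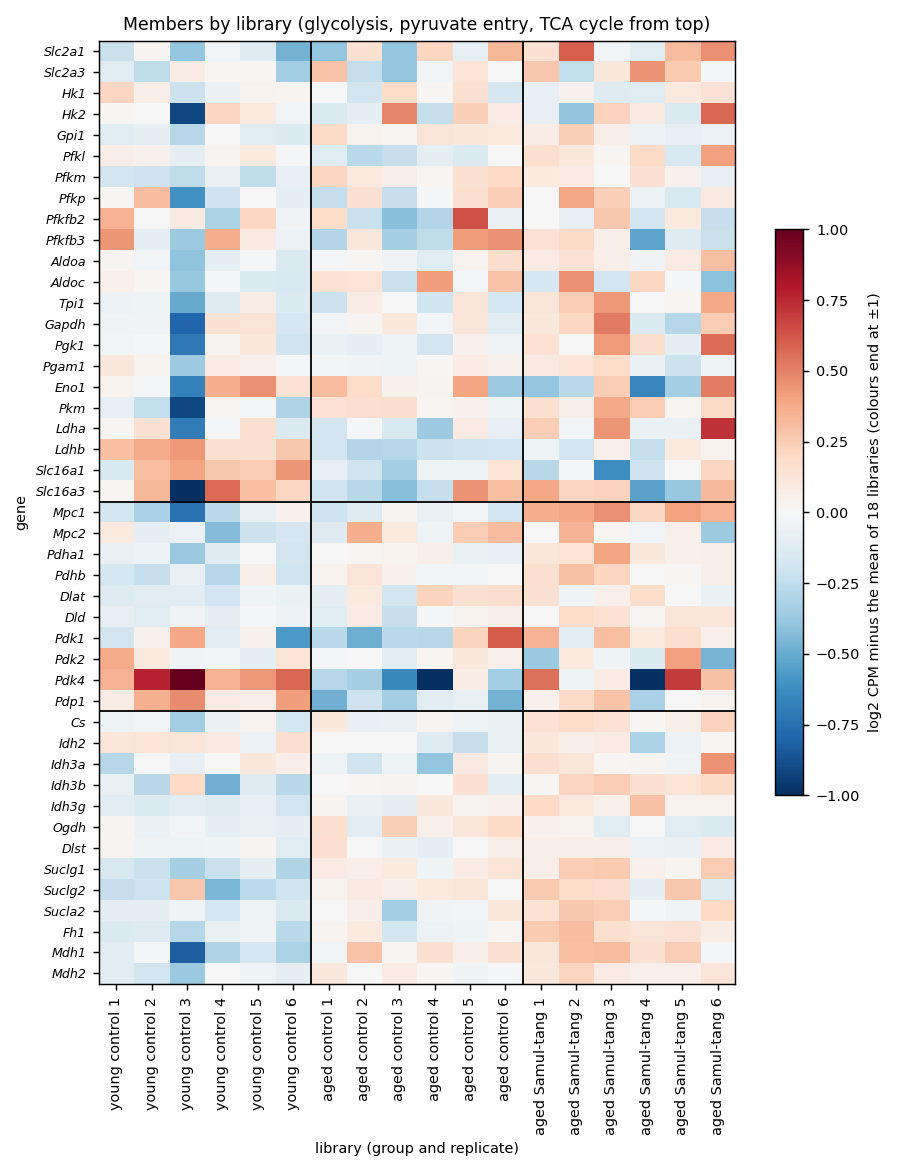
Heat map of the 45 genes (rows, by step) in the 18 libraries (columns, by group); colour is the log2 CPM of a gene minus its mean over the 18 libraries. The column of young control 3 is low across most glycolysis rows, and Mpc1 is high in all 6 Samul-tang libraries.

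With age, 8 of the 45 genes passed an adjusted p of 0.05 (edgeR quasi-likelihood test, adjusted over all 16959 genes tested), or 17.8% against 11.3% of all genes. The 4 genes that rose, where 5.25% of all genes did, were the glycolytic enzymes Gpi1 and Pfkm and the TCA cycle enzymes Suclg1 and Mdh1. The 4 that fell, where 6.03% of all genes did, were Ldhb and the transporter Slc16a1 at the lactate end of glycolysis, and Pdk4 and Pdp1, both of which act on pyruvate dehydrogenase. The median log2 difference was 0.08 over the 45 genes and 0.01 over all genes, with 0.05 in glycolysis, 0.08 in pyruvate entry and 0.14 in the TCA cycle, where 11 of 13 genes had a value above 0. An unadjusted p under 0.05 was found for 18 of the 45 genes (40.0%), against 24.0% of all genes. For 6 members the young and aged ranges did not overlap, Gpi1, Pfkm, Ldhb, Pdk4, Pdp1 and Suclg1, where 7.38% of all genes had such ranges.

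With Samul-tang, 1 of the 45 genes passed against the aged controls, Mpc1, which rose (2.22%, against 1.04% of all genes in either direction and 0.548% in that direction), and 0 fell, where 0.489% of all genes did. It was also the single member whose ranges in the 2 groups did not overlap, a pattern that 1.53% of all genes showed. The median log2 difference was 0.10 against 0.01 over all genes, and 14 members had an unadjusted p under 0.05 (31.1%, against 16.9% of all genes). DESeq2, run on the same counts, called Pfkl and Fh1 as well as Mpc1, and it also called more genes in all, 2.1% of the 14062 genes it gave an adjusted p as higher. Both comparisons use the same aged controls, so the values of a gene in them are not independent.

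**Figure D2:**
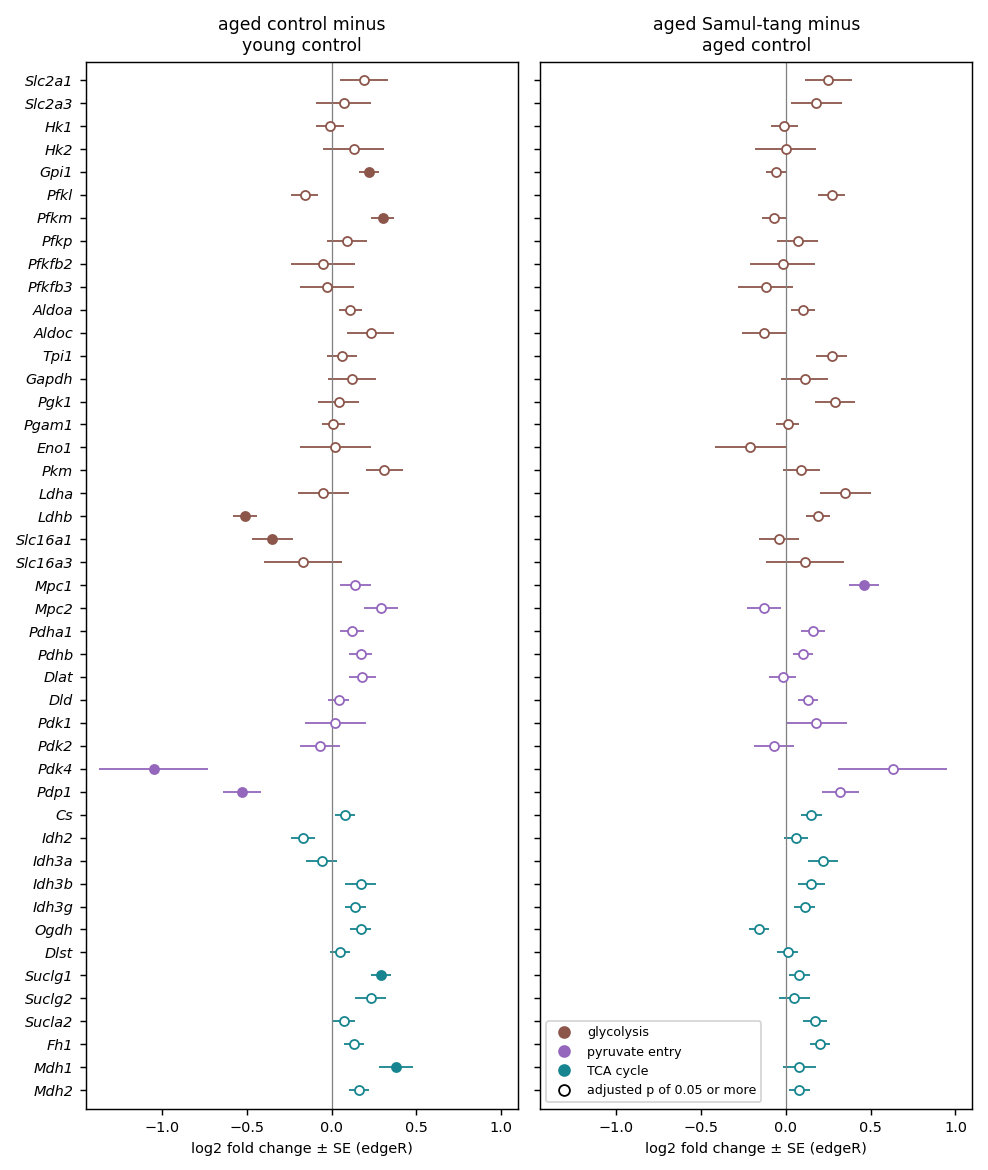
Log2 fold change (horizontal axis, point) with its standard error (bar) for each of the 45 genes, in aged against young controls and in Samul-tang against aged controls; filled points passed an adjusted p of 0.05. For age 8 points are filled, 4 on each side of 0, and Mpc1 alone is filled for Samul-tang.

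Glucose enters through facilitative transporters and is trapped by hexokinase, and no gene of this entry step passed in either comparison. Slc2a1, the widespread glucose transporter GLUT1, ran from 8.84 through a median of 10.9 to 12.5 CPM in young controls, from 9.38 through 12.6 to 15.4 in aged controls and from 11.3 through 14.4 to 18.6 with Samul-tang. The groups overlapped, with log2 differences of 0.19 ± 0.14 (SE, adjusted p = 0.466) with age and 0.25 ± 0.14 (adjusted p = 0.378) with Samul-tang. Slc2a3, the high-affinity transporter GLUT3, had mean levels between 4.54 and 5.4 CPM in the 3 groups.

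Hexokinase 2, the inducible form encoded by Hk2, ran from 24.5 through 46.1 to 53.4 CPM in young controls, from 38.9 through 45.9 to 64.4 in aged controls and from 34.9 through 46.2 to 68.5 with Samul-tang. The 3 medians lay within 1 CPM of each other, and the young minimum was young control 3. Its log2 difference was 0.13 ± 0.18 with age (adjusted p = 0.727) and 0.00 ± 0.18 with Samul-tang (adjusted p = 0.995). The constitutive Hk1 stood at 32.4 ± 3.22, 32.3 ± 3.41 and 32.0 ± 2.67 CPM in the 3 groups in the same order (SD, n = 6 each).

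Gpi1, the isomerase that turns glucose 6-phosphate into fructose 6-phosphate, ran from 98.5 through 110 to 120 CPM in young controls, from 121 through 128 to 137 in aged controls and from 113 through 120 to 141 with Samul-tang. Every aged control lay above every young control, and the Samul-tang group overlapped both. It rose with age by 0.22 ± 0.06 on the log2 scale (adjusted p = 0.0209), and by 0.19 without young control 3 (adjusted p = 0.0487). The call was lost without aged control 1 (0.19, adjusted p = 0.059) and on the deposited TPM values (adjusted p of 0.0863 and 0.0879 for the 2 pseudocounts tried). With Samul-tang its difference was -0.06 ± 0.06 (adjusted p = 0.647).

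Phosphofructokinase, the committing step of glycolysis, is a tetramer of 3 kinds of subunit, of which Pfkm passed with age. Pfkm, the muscle-type subunit, ran from 16.6 through 17.3 to 18.9 CPM in young controls and from 20.1 through 21.7 to 23.0 in aged controls, without overlap, and from 18.8 through 20.8 to 22.1 with Samul-tang. It rose with age by 0.30 ± 0.07 (adjusted p = 0.00792), a call that held in all 30 alternative settings, and its difference with Samul-tang was -0.07 ± 0.07 (adjusted p = 0.648). Pfkl, the liver-type subunit, had a difference of -0.16 ± 0.08 with age (adjusted p = 0.229) and of 0.27 ± 0.08 with Samul-tang (31.5 ± 2.15 against 37.9 ± 5.01 CPM, SD, n = 6 each), which missed the threshold at an adjusted p of 0.0827. For Pfkp, the platelet-type subunit, the values were 0.09 ± 0.12 and 0.07 ± 0.12. Their ratios within a library did not pass with age: that of Pfkm to Pfkp differed by 0.19 (exact permutation test, adjusted p = 0.568) and that of Pfkl to Pfkp by -0.27 (exact permutation test, adjusted p = 0.291).

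Pfkfb3 makes fructose 2,6-bisphosphate, the activator of phosphofructokinase, and ran from 14.4 through 18.7 to 25.1 CPM in young controls, from 14.7 through 17.8 to 25.4 in aged controls and from 12.8 through 18 to 21.1 with Samul-tang. The 3 groups covered nearly the same range, with log2 differences of -0.03 ± 0.16 with age (adjusted p = 0.937) and -0.12 ± 0.16 with Samul-tang (adjusted p = 0.768). The sister enzyme Pfkfb2 had means between 3.07 and 3.24 CPM.

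None of the enzymes from aldolase to enolase passed in either comparison. Gapdh, which oxidises glyceraldehyde 3-phosphate and is often taken as a reference gene, ran from 680 through 1150 to 1310 CPM in young controls, from 1100 through 1180 to 1290 in aged controls and from 967 through 1310 to 1690 with Samul-tang. Its SD was 230 CPM in young controls, 72.4 in aged controls and 260 with Samul-tang, and the differences were 0.12 ± 0.14 (adjusted p = 0.686) and 0.11 ± 0.14 (adjusted p = 0.745). The aldolases Aldoa and Aldoc had differences of 0.11 ± 0.07 and 0.23 ± 0.14 with age, and Pgam1, the mutase, one of 0.01 ± 0.07. With Samul-tang, Tpi1, the triose phosphate isomerase, went from 93.0 ± 9.86 to 112 ± 14.4 CPM (0.27 ± 0.09, adjusted p = 0.126) and Pgk1, the first step that makes ATP, from 104 ± 5.37 to 127 ± 22.2 CPM (0.29 ± 0.12, adjusted p = 0.215). Pkm, the pyruvate kinase of most tissues, stood at 356 ± 73.9 CPM in young and 442 ± 28.3 CPM in aged controls (0.31 ± 0.11, adjusted p = 0.0764), and the lowest of the young values, 221 CPM, was that of young control 3. Eno1, read with the limit given above, had differences of 0.02 ± 0.21 and -0.21 ± 0.21.

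At the end of the pathway, the 2 lactate dehydrogenase subunits parted with age. Ldhb, the heart-type subunit of the enzyme, ran from 75.5 through 82.8 to 92.1 CPM in young controls, from 55.5 through 58.9 to 59.6 in aged controls and from 57.6 through 67.7 to 72.7 with Samul-tang. All aged controls lay below all young controls, the Samul-tang group also lay below the young one, and it overlapped the aged one. Ldhb fell by 0.51 on the log2 scale with age (SE 0.07, adjusted p = 1.41e-05), the lowest p of the 45 genes, and passed in all 30 alternative settings. Its difference with Samul-tang was 0.19 ± 0.07, which did not pass (adjusted p = 0.144). A gene that shared reads with it, Gm5514, held 0.203 CPM on average in young controls and 0.126 in aged controls.

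Ldha, the muscle-type subunit, ran from 56.7 through 91.7 to 103 CPM in young controls, from 71.7 through 85.1 to 97.4 in aged controls and from 87.7 through 99.6 to 152 with Samul-tang. The young and aged ranges lay over each other (-0.05 ± 0.15, adjusted p = 0.888), and the Samul-tang values reached higher without passing (0.35 ± 0.15, adjusted p = 0.236). Within each library the log2 ratio of Ldha to Ldhb was 0.07 ± 0.40 in young and 0.55 ± 0.16 in aged controls, a difference of 0.48 (SD, n = 6 each; two-sided exact permutation test over all regroupings, p = 0.00433, adjusted p = 0.0375 over 26 tests). Leaving out 1 library at a time gave differences from 0.33, without young control 3 (adjusted p = 0.075 in that exact test), to 0.56, and ended the call for 10 of the 12 libraries. The ratio with Samul-tang was 0.69 ± 0.28, against the aged controls a difference of 0.14 (exact permutation test, adjusted p = 0.575).

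Slc16a1 encodes the monocarboxylate transporter MCT1, which carries lactate and pyruvate. It ran from 25.8 through 34.9 to 38.8 CPM in young controls, from 22.5 through 27.3 to 31.4 in aged controls and from 18.6 through 26.6 to 33.2 with Samul-tang. All 3 ranges overlapped, the young range through 1 low library, young control 1. It fell by 0.35 with age (SE 0.12, adjusted p = 0.0484), and this call was weak: it held in 12 of 30 alternative settings, with adjusted p up to 0.116 and with the same direction. Young control 3 was among the many single libraries without which it was lost (-0.33, adjusted p = 0.0912). With Samul-tang the difference was -0.04 ± 0.12 (adjusted p = 0.905). Slc16a3, the lactate exporter MCT4, had means between 7.04 and 7.84 CPM.

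The promoters of 3 of the 4 genes on the glucose and lactate side that were called with age are shown next, together with those of Mdh1 and Mpc1. They let a reader see which letters stand before the start of these genes. The windows of Pfkm, with an E-box 136 bases before the start, and of Suclg1 and Pdk4 are not shown. Each is the 250 bases before the gene's first start in RefSeq (GRCm38.p6), written 5' to 3' on the gene's own strand. Capitals mark a GC box (GGGCGG, or CCGCCC on the other strand), an E-box (CACGTG) or the core of the hypoxia response element (ACGTG, or CACGT on the other strand). Every E-box holds that core on both strands, so these 2 overlap.
Gpi1, chr7:34230337-34230586, minus strand: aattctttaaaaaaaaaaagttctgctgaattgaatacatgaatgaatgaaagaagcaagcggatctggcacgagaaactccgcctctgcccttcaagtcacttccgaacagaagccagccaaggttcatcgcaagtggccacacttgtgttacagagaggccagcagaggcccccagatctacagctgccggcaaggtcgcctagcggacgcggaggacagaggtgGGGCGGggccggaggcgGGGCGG
Ldhb, chr6:142507958-142508207, minus strand: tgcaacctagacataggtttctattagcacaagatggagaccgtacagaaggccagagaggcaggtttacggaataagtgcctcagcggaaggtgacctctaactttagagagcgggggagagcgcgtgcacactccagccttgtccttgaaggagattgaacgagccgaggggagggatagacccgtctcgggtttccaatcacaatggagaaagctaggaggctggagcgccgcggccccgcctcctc
Slc16a1, chr3:104638414-104638663, plus strand: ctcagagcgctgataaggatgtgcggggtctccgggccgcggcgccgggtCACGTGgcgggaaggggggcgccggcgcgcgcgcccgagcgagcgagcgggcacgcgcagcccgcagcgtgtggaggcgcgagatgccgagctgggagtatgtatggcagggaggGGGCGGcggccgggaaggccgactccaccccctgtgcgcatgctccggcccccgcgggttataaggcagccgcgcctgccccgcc
Mdh1, chr11:21571935-21572184, minus strand: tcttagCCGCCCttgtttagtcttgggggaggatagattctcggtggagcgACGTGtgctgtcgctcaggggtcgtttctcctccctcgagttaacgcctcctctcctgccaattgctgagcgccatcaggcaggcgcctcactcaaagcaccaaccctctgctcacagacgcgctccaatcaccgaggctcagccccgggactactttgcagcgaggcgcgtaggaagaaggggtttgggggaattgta
Mpc1, chr17:8283537-8283786, plus strand: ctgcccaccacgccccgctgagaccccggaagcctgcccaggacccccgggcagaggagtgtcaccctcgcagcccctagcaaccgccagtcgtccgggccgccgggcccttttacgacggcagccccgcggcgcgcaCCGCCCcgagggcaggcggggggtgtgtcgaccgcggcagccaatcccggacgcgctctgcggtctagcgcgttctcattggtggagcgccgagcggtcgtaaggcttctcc

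Among the 42 members with a promoter in the table (Idh3a, Pdp1 and Slc2a3 had none), 25 held a GC box (59.5%, against 57.2% of the 11336 tested genes with a promoter). The hypoxia response core was in 14 of 42 (33.3%, against 21.1%), and these were 9 of 21 glycolysis genes, 2 of 9 pyruvate entry genes and 3 of 12 TCA cycle genes. Among the glycolysis genes that held it were Slc2a1, Hk2, Pfkm, Pfkfb3, Pgk1, Ldha and Slc16a1. The E-box was in 4 members (9.52%, against 8.24%), the cyclic AMP response element (TGACGTCA) in 3 (7.14%, against 2.56%), the NRF1 site in 2 (4.76%, against 7.78%), the nuclear receptor half-site (AAGGTCA) in 1 (2.38%, against 2.82%) and the ETS site (ACTTCCGG) in 0 (against 5.57%). All motifs were searched on both strands. The Ldhb window held none of the 7 motifs, the Mpc1 window held a GC box 112 bases before the start, and Gpi1 held GC boxes 23 and 6 bases before it. These are matches of letters, and binding was not measured.

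Pyruvate then enters the mitochondrion through the carrier, and here lay the one member that rose with Samul-tang. Mpc1 ran from 18.2 through 26.1 to 31.5 CPM in young controls, from 26.5 through 28.5 to 31.1 in aged controls and from 35.2 through 39.6 to 42.0 with Samul-tang. The young and aged controls overlapped, and every Samul-tang library lay above every library of both other groups. The means were 28.6 ± 1.80 CPM in aged controls and 39.2 ± 2.28 CPM with Samul-tang (SD, n = 6 each), a rise of 0.46 ± 0.09 on the log2 scale or 1.37-fold (adjusted p = 0.0179). With age its difference was 0.14 ± 0.09 (adjusted p = 0.404), and 0.05 without young control 3.

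The call of Mpc1 held in 28 of 30 alternative settings. Without Samul-tang mouse 3 the difference was 0.43 (adjusted p = 0.0538). With the share of the most abundant gene as a covariate, a share that differs between the same 2 groups, it was 0.34 (adjusted p = 0.488), and under that setting no gene of all those tested was called. With all libraries thinned to the lowest total Mpc1 was still called. Reads of Mpc1 were shared in part with 4930506C21Rik, a long non-coding gene that the RefSeq table places over the end of Mpc1, and that gene held 1.37 ± 0.376 CPM in aged controls and 2.26 ± 0.443 CPM with Samul-tang. Summed over both genes the level was 29.9 ± 1.85 CPM in aged controls, with a highest value of 32, and 41.5 ± 2.54 CPM with Samul-tang, with a lowest value of 36.8. The summed expected count was whole in 9 of the 18 libraries, and whether further genes shared these reads was not tested.

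Mpc2, the other subunit of the same carrier, did not follow. It ran from 47.7 through 58.9 to 68.9 CPM in young controls, from 58.9 through 73.0 to 83.1 in aged controls and from 50.3 through 64.9 to 81.4 with Samul-tang. All groups overlapped, with differences of 0.29 ± 0.10 with age (adjusted p = 0.0747, and past the threshold in 6 of 30 alternative settings, with 0.0397 as the lowest) and -0.13 ± 0.10 with Samul-tang (adjusted p = 0.538). The log2 ratio of Mpc1 to Mpc2 within a library lay between -1.57 and -1.10 in aged controls and between -1.03 and -0.38 with Samul-tang, without overlap. The difference was 0.59 (exact permutation test, p = 0.00216, the smallest that 6 against 6 libraries can give, adjusted p = 0.0281 over 26 tests), and this ratio uses the same Mpc1 counts as the result above. Leaving out 1 library at a time gave 0.53 to 0.66, and ended the call for 5 of the 12 libraries, all of them aged controls (exact permutation test, adjusted p up to 0.0563). The call held without any 1 of the Samul-tang libraries, where the exact test was also of 5 against 6. Without an aged control the tests of both comparisons are of 5 against 6 libraries. There the exact permutation test cannot go below p = 0.00433, which becomes 0.0563 after adjustment where 2 tests reach it. These losses therefore do not measure how far the ratio hangs on a given mouse.

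**Figure D3:**
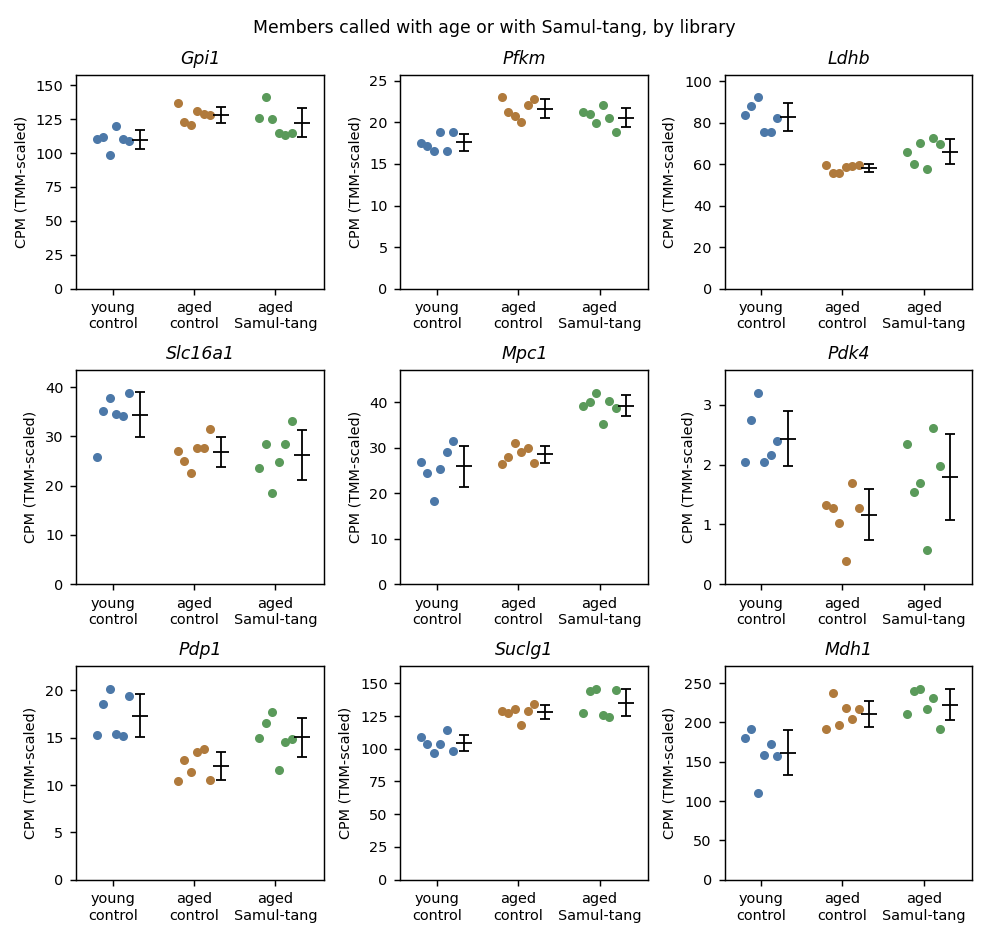
CPM of the 9 genes that passed in either comparison, 1 panel per gene; each dot is a library, by group, and the bar gives the mean ± SD (n = 6). Gpi1, Pfkm, Suclg1 and Mdh1 are higher and Ldhb, Slc16a1, Pdk4 and Pdp1 lower in aged than in young controls, and Mpc1 is highest in the 6 Samul-tang libraries.

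None of the 4 members that encode subunits of the pyruvate dehydrogenase complex itself passed in either comparison. Pdha1, the subunit that the kinases phosphorylate, ran from 34.1 through 41.0 to 44.0 CPM in young controls, from 41.5 through 44.3 to 46.1 in aged controls and from 45.5 through 47.6 to 57.9 with Samul-tang. Neighbouring groups overlapped, and the differences were 0.12 ± 0.07 with age (adjusted p = 0.311) and 0.16 ± 0.07 with Samul-tang (adjusted p = 0.259). With age, Pdhb, the other E1 subunit, differed by 0.17 ± 0.07 (adjusted p = 0.0901), Dlat, the E2 acetyltransferase, by 0.18 ± 0.08 (adjusted p = 0.155) and Dld, the E3 subunit also used by the 2-oxoglutarate complex, by 0.04 ± 0.06 (adjusted p = 0.77). With Samul-tang these 3 differed by 0.10 ± 0.06, -0.02 ± 0.08 and 0.13 ± 0.06.

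The regulators of the complex included Pdk4, the gene with the largest fold change of the 45 in the edgeR fit with age. Pdk4, a kinase that inactivates the complex and is known to respond to fasting, ran from 2.05 through 2.29 to 3.20 CPM in young controls, from 0.395 through 1.28 to 1.69 in aged controls and from 0.575 through 1.84 to 2.61 with Samul-tang. The young and aged ranges did not overlap, and the Samul-tang range lay across both. It fell by 1.05 on the log2 scale with age (SE 0.32, adjusted p = 0.031). Pdk4 was also the member with the fewest counts, between 5 and 44 per library, and the call held in 24 of 30 alternative settings, with adjusted p up to 0.0679. Leaving out any 1 of 5 libraries ended it (aged control 3 or 4, young control 2, 3 or 6), while the difference stayed between -0.87 and -1.06 (-0.97 without young control 3, adjusted p = 0.0639). On the deposited TPM values it was -0.95 with a pseudocount of 0.1 and -0.35 with a pseudocount of 1, which shrinks differences of genes as low as this one. With Samul-tang the difference was 0.63 ± 0.32 (adjusted p = 0.319).

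The kinases Pdk1 and Pdk2 did not share this change, with differences of 0.02 ± 0.18 and -0.07 ± 0.12 with age and of 0.18 ± 0.18 and -0.07 ± 0.12 with Samul-tang. A further kinase that is no member, Pdk3, was also lower with age (-0.35 ± 0.11, edgeR adjusted p = 0.04998). That call held in 11 of 31 settings, the main one included. The log2 ratio of Pdk2 to Pdk4 within a library was 2.47 ± 0.34 in young and 3.54 ± 0.69 in aged controls, a difference of 1.07 (exact permutation test, p = 0.00216, adjusted p = 0.0281), and 2.86 ± 0.78 with Samul-tang, which did not pass against the aged controls (exact permutation test, adjusted p = 0.485). Leaving out 1 library at a time, the difference with age lay between 0.80 and 1.18 and was past the threshold in 2 of 12 cases. The other 10 had an adjusted p of up to 0.0563 in the exact permutation test with 5 against 6 libraries.

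Pdp1, the phosphatase that reactivates the complex and so acts against the kinases, also fell with age. It ran from 15.2 through 17 to 20.2 CPM in young controls, from 10.4 through 12.0 to 13.8 in aged controls and from 11.6 through 15 to 17.7 with Samul-tang. Young and aged controls did not overlap, and the Samul-tang group overlapped both. The fall was 0.53 on the log2 scale (SE 0.11, adjusted p = 0.00305) and passed in all 30 alternative settings, and the difference with Samul-tang was 0.32 ± 0.11 (adjusted p = 0.136). The ratio of Pdk1 to Pdp1 differed by 0.51 with age (exact permutation test, p = 0.0346) and did not pass after adjustment (adjusted p = 0.225).

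**Figure D4:**
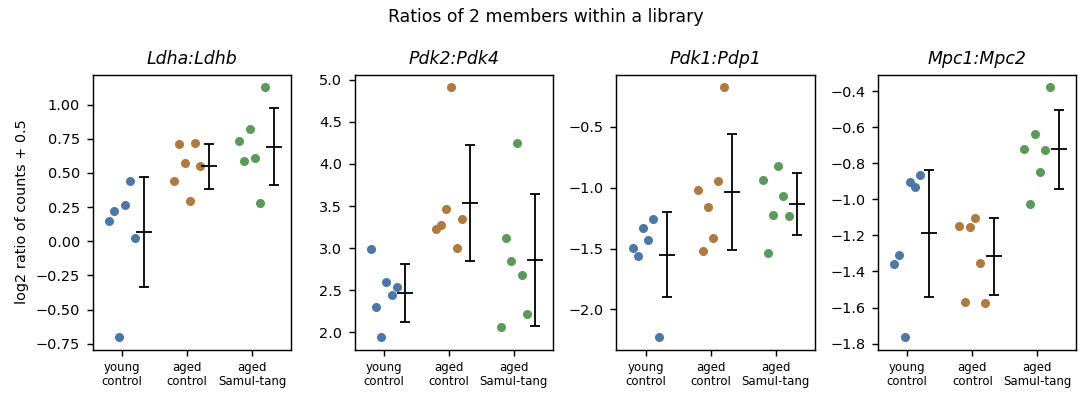
Log2 ratio of 2 genes within a library for Ldha to Ldhb, Pdk2 to Pdk4, Pdk1 to Pdp1 and Mpc1 to Mpc2; each dot is a library and the bar gives the mean ± SD (n = 6 per group). Ldha to Ldhb and Pdk2 to Pdk4 are higher in aged than in young controls, and Mpc1 to Mpc2 is higher with Samul-tang than in aged controls.

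In the TCA cycle list, the genes that rose with age were Suclg1 and the cytosolic Mdh1. Suclg1, the alpha subunit shared by both forms of succinyl-CoA ligase, ran from 96.6 through 104 to 114 CPM in young controls, from 118 through 129 to 134 in aged controls and from 124 through 136 to 146 with Samul-tang. No aged library, treated or not, overlapped the young range. The rise with age was 0.29 ± 0.06 (adjusted p = 0.00222) and passed in all 30 alternative settings, and the difference with Samul-tang was 0.08 ± 0.06 (adjusted p = 0.519). Its GTP-specific partner Suclg2 differed by 0.23 ± 0.09 with age (adjusted p = 0.103). Young control 3 was the highest of its group for Suclg2 at 102 CPM, with the other young controls between 61.6 and 73.4 and the aged controls between 84.4 and 91.8, and without it the difference was 0.33 ± 0.07 (adjusted p = 0.00301). The ATP-specific partner Sucla2 differed by 0.07 ± 0.07 (adjusted p = 0.635).

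Mdh1, the cytosolic malate dehydrogenase of the malate-aspartate shuttle, ran from 110 through 166 to 192 CPM in young controls, from 191 through 211 to 237 in aged controls and from 192 through 224 to 243 with Samul-tang. The young and aged ranges met at their edges. It rose with age by 0.38 ± 0.10 (adjusted p = 0.0106), and by 0.29 without young control 3, whose value of 110 CPM was the lowest (adjusted p = 0.00864). With Samul-tang it differed by 0.08 ± 0.10 (adjusted p = 0.739). The mitochondrial enzyme Mdh2 ran from 185 through 223 to 240 CPM, from 232 through 241 to 258 and from 248 through 256 to 278 in the 3 groups in the same order. Neighbouring groups overlapped, with differences of 0.16 ± 0.06 (adjusted p = 0.0917) and 0.08 ± 0.06 (adjusted p = 0.519). The ratio of Mdh1 to Mdh2 did not pass with age (0.24, exact permutation test, adjusted p = 0.291).

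Cs, the citrate synthase that opens the cycle, ran from 65.7 through 80.3 to 85.6 CPM in young controls, from 79.0 through 80.3 to 90.1 in aged controls and from 84.4 through 92.5 to 98.3 with Samul-tang. The young and aged medians were equal, and all 6 Samul-tang libraries lay above the aged median, with differences of 0.08 ± 0.06 with age (adjusted p = 0.504) and 0.15 ± 0.06 with Samul-tang (adjusted p = 0.208). Idh3a, the catalytic subunit of the NAD-dependent isocitrate dehydrogenase, ran from 38.6 through 46.9 to 50.9, from 36.0 through 45.5 to 50.1 and from 45.9 through 49.5 to 64.2 CPM in the 3 groups. Its differences were -0.06 ± 0.09 (adjusted p = 0.747) and 0.22 ± 0.09 (adjusted p = 0.201). The other subunits Idh3b and Idh3g differed by 0.17 ± 0.09 (adjusted p = 0.211) and 0.14 ± 0.06 (adjusted p = 0.155) with age, and the NADP-dependent Idh2 by -0.17 ± 0.07 (adjusted p = 0.137). For Idh3b too, young control 3 was the highest young library (50.8 CPM, the others between 31.6 and 41.9), and without it the difference was 0.25 ± 0.07 (adjusted p = 0.0278).

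Ogdh, the first enzyme of the 2-oxoglutarate complex, stood at 66.8 ± 2.23 CPM in young controls, 75.0 ± 6.23 in aged controls and 67.0 ± 4.08 with Samul-tang (SD, n = 6 each). Neither its difference with age (0.17 ± 0.06, adjusted p = 0.0816) nor that with Samul-tang (-0.16 ± 0.06, adjusted p = 0.163) passed, and it was the one TCA cycle gene with a value below 0 in the latter. Dlst, the second enzyme of that complex, differed by 0.05 ± 0.06 and 0.01 ± 0.06. Fh1, fumarase, stood at 63.4 ± 4.44, 69.5 ± 4.58 and 80.0 ± 4.84 CPM in the 3 groups. Its difference of 0.20 ± 0.06 with Samul-tang did not pass in edgeR (adjusted p = 0.0951).

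Set against the young controls, the Samul-tang group differed in 20 of 45 genes (44.4%, against 22.4% of all genes), with 18 higher (11.5% of all genes were) and 2 lower (10.9%). This contrast shares libraries with both others and holds age and treatment together. In the TCA cycle 9 of 13 genes were higher: Cs, Idh3b, Idh3g, Suclg1, Suclg2, Sucla2, Fh1, Mdh1 and Mdh2, from 0.23 to 0.46 on the log2 scale. In pyruvate entry these were Mpc1 (0.59 ± 0.09), Pdha1 (0.28 ± 0.07) and Pdhb (0.27 ± 0.07), and in glycolysis Slc2a1, Pfkm, Aldoa, Tpi1, Pgk1 and Pkm, from 0.21 to 0.44. Ldhb (-0.33 ± 0.07, adjusted p = 0.0011) and Slc16a1 (-0.39 ± 0.11, adjusted p = 0.0152) were lower. Pdk4 and Pdp1, both lower in aged than in young controls, had differences of -0.43 ± 0.30 (adjusted p = 0.333) and -0.20 ± 0.11 (adjusted p = 0.206) here. For 10 members the 2 ranges did not overlap, where 9.5% of all genes had such ranges. With the share of the most abundant gene as a covariate, 4 genes were higher (Idh3g, Mpc1, Fh1 and Suclg1, where 4.34% of all genes were) and 1 was lower (Ldhb, where 3.73% of all genes were).

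Around the 45 genes, 97 others of the same and adjoining pathways were listed, and 85 were tested. With age 15 passed (17.6%, against 11.3% of all genes), 7 higher (5.25% of all genes were) and 8 lower (6.03%). In the TCA cycle and its shuttles 6 of 20 passed: the succinate dehydrogenase subunits Sdhb (0.35 ± 0.06) and Sdhc (0.26 ± 0.07), the cytosolic Idh1 (0.46 ± 0.10), the citrate carrier Slc25a1 and the glycerol phosphate shuttle enzyme Gpd2 rose, and the aspartate-glutamate carrier Slc25a13 fell by 0.74 (SE 0.10, adjusted p = 1.941e-05). In the pentose phosphate and glycogen list Pgls and Taldo1 rose by 0.39 and 0.38, and the glycogen phosphorylase Pygb fell by 0.55. The malic enzymes of mitochondria, Me3 (from 9.56 ± 1.89 to 4.28 ± 1.16 CPM, SD, n = 6 each) and Me2, fell by 1.15 and 0.50, as did Lipt2, Pdk3, Bpgm and Ldhd. The calls of Gpd2, Lipt2 and Pdk3 were lost in several settings, with adjusted p up to 0.18. None of the 19 regulators of glucose metabolism passed with age in edgeR, and 3 had an unadjusted p under 0.05. With Samul-tang 1 of the 85 passed (1.18%, near the 1.04% of all genes), the aspartate-glutamate carrier Slc25a12, which lay between 29.3 and 34.0 CPM in aged controls, between 35.4 and 48.6 CPM with Samul-tang, and rose by 0.41 ± 0.08 (adjusted p = 0.0173). Without Samul-tang mouse 3 its difference was 0.38 (adjusted p = 0.0512), with the share of the most abundant gene as a covariate 0.31 (adjusted p = 0.46), and on the TPM scales 0.32 and 0.37 (adjusted p = 0.125 and 0.128).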

How the data were processed

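Whole ovaries of 18 mice gave 1 library each, made with a 3' end kit (QuantSeq), per the labels' protocols. Tools listed in the submitters' processing notes are STAR 2.7.9a, RSEM 1.3.3 and FastQC 1.9, with GRCm39 as the build. What annotation and strand setting the counting used is not given in any source here, so overlapping genes and near-identical copies may share reads. For each of 55416 genes the authors deposited an RSEM expected count (an estimate that shares reads among genes) and a TPM value, per the file headers. The deposited TPM values are divided by transcript length, which does not suit 3' tags, and served as an alternative only. Gene lengths, another deposited column, were used only in the alternative that removes a length trend.

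Expected counts were rounded, filtered with the edgeR filter (16959 genes left) and scaled by TMM. The test was edgeR's quasi-likelihood test (version 4.0.16, R 4.3.3, robust, two-sided), with all 18 libraries in 1 fit, 3 group means and Benjamini-Hochberg adjustment over all genes. Levels are CPM with SD over 6 mice. Ratios are log2 values of (count + 0.5) within a library, for 13 pairs, and were compared by exact permutation over all regroupings of 6 against 6 libraries. Fits were checked on simulated data for aged against young controls. There the test called 19.4% of 67 genes with a true log2 change of 0.3 in either direction. It called 56.7% of 67 genes at 0.5, 97% of 66 at 1 and 0.0424% of the 16490 genes without a change. A gene that did not pass may therefore still differ by such small amounts. With totals from 9.05 to 20.35 (units of 1000000 counts), 1 CPM stands for 9 to 20 counts. No 2 libraries agreed within sampling noise. P-values measure the spread between mice, and nothing in the labels gives a batch.

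The 45 members, the pairs and all other lists were chosen with earlier results of these data known, including the rise of Mpc1 with Samul-tang, so none is independent support. Named in full were the members that passed with age or with Samul-tang and a panel of 14 members whatever their result, and of other pathway genes up to 4 per list with the smallest p, to which Slc25a1 and Gpd2 were added after their values were seen. Marker lists, 15 in all, covered ovarian, immune, vascular, blood, muscle, fat, oviduct and mesothelial cells. The macrophage, granulosa, cumulus, erythrocyte, skeletal muscle, oviduct and mesothelium sums passed in neither comparison. With age, however, 4 of 9 tested granulosa genes were called lower and 0 higher, where 6.03% of all genes were lower. Their median log2 difference was -0.45. Some genes of the macrophage, cumulus and mesothelium lists were also called with age. Alternatives were other scalings (RLE), DESeq2 1.42.0, no filter, limma 3.58.1 on log2(TPM + 1) and log2(TPM + 0.1), only the 12 libraries compared, a replicate block, a length trend, the most abundant gene as covariate or left out, thinning and leaving out libraries. Promoter windows came from a RefSeq table (GRCm38.p6), another build than that of the counts, and no coordinates were converted.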

Additional observations from a re-analysis of the deposited data

Results flagged for a closer look

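In 57 groups of 6 libraries (19 named members in 3 groups), Dixon's test at its 95% critical value marked 3 single libraries, where chance marks about 1 group in 20. Hk2 was lowest in young control 3 at 24.5 CPM, with the other 5 young controls between 45.2 and 53.4 CPM. Slc16a1 was lowest in young control 1 at 25.8 CPM, with the others between 34.2 and 38.8 CPM. Pdha1 was highest in Samul-tang mouse 3 at 57.9 CPM, with the others between 45.5 and 48.5 CPM.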

How the results depend on the processing

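Pfkm, Suclg1, Mdh1, Ldhb and Pdp1 passed with age in each of 30 alternative settings, and Gpi1, Slc16a1 and Pdk4, and Mpc1 with Samul-tang, lost their call in some, as given beside them. Where a single library was left out, between 4 and 6 members were higher with age and between 2 and 4 lower, the lowest count arising without aged control 3 or 4 or young control 2, 3 or 6. Over all genes, 682 to 1047 were then higher with age and 814 to 1156 lower, of 17111 to 17190 tested. Without both young control 3 and Samul-tang mouse 6, 8 were higher with age and 2 with Samul-tang. Over all 17029 genes tested in that setting, 1073 were higher with age and 223 with Samul-tang.

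Against the aged controls, 3 members were higher with Samul-tang by DESeq2 and 0 with the share of the most abundant gene as a covariate, and between 0 and 2 when 1 library was left out (0 without Samul-tang mouse 3). Against the young controls 4 were higher and 1 lower with that covariate, and between 13 and 18 were higher without 1 library. Over all genes, 1589 to 1966 were higher in that comparison without 1 library. Of the other pathway genes, 15 passed with age (12 to 16 without 1 library) and 1 with Samul-tang, with 5 by DESeq2, 0 with the covariate, 3 without those 2 libraries, 0 without Samul-tang mouse 3 and up to 5 without Samul-tang mouse 4. Calls with Samul-tang over all genes moved as well. DESeq2 called 295 higher and 374 lower of 14062, and the covariate left 0 of 16959. Without those 2 libraries 223 were higher and 260 lower of 17029. Without Samul-tang mouse 3 these were 15 and 17 of 17158, and without mouse 4 they were 275 and 318 of 17175. The cause was not tested.

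Of 13 ratios, 2 passed with age and 1 with Samul-tang. On TPM 0 passed in either, after thinning 1 passed with age, and without 1 library between 0 and 2 passed in each comparison.

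Small differences changed sign, none of them called. With the covariate these were Pfkfb3 with age (0.02) and, with Samul-tang, Hk2 (-0.04), Gapdh (-0.26), Slc16a1 (0.25), Pdha1 (-0.01), Suclg1 (-0.03) and Mdh1 (-0.06). Hk2 with Samul-tang was -0.00 by RLE scaling, by DESeq2 and over the 12 libraries compared, -0.12 and -0.13 on the TPM scales and -0.12 without those 2 libraries. On TPM the ratios Aldoa to Aldoc (0.01) and Pfkfb2 to Pfkfb3 (0.09) with age, and Pdk1 to Pdp1 with Samul-tang (0.02), changed sign. Leaving out 1 library, Pfkfb3 with age ranged from -0.13 to 0.05, Hk2 with Samul-tang from -0.12 to 0.10, Slc16a1 with Samul-tang from -0.12 to 0.04, and the ratios Pdk1 to Pdp1 with Samul-tang from -0.20 to 0.07, Pfkfb2 to Pfkfb3 with age from -0.17 to 0.06, Slc16a1 to Slc16a3 with age from -0.36 to 0.03 and Slc2a1 to Slc2a3 with Samul-tang from -0.07 to 0.21.

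The groups share replicate numbers 1 to 6, and same-numbered libraries did not deviate together: correlations ran from -0.118 to 0.0736, and in each comparison 1 of 6 libraries matched its own number best. With the replicate block the same members were called with age (4 higher, 4 lower) and against the aged controls (Mpc1), the calls of Gpd2, Lipt2 and Pdk3 were lost, Hk2 with Samul-tang was -0.01, and 0 ratios passed, since the paired test cannot go below p = 0.0312 (exact test). A member near 2 CPM such as Pdk4 rests on few counts, which limits its precision.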
